A study of Mus musculus with 9 samples.

Results

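The comparison described here is spinal cord injury (SCI) against sham surgery 7 days after the operation, in mouse spinal cord. Its members are the 3 sham and the 3 untreated SCI libraries, 6 of the 9 RNA-seq libraries of the study, chosen by the treatment that the labels give. Both groups are wild-type C57BL/6 mice of 7-9 weeks. The sham mice carry the label no injury, and the SCI mice were injured and given no hyperbaric oxygen. The remaining 3 libraries come from injured mice given hyperbaric oxygen and were not used, except in 1 alternative fit. The labels do not say whether each library is a separate animal or a pool, nor how long a piece of cord was taken, so a p-value measures only the spread between these samples.

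Injury to the spinal cord kills neurons and oligodendrocytes at the site and opens the blood vessels. Over the following days microglia and blood monocytes fill the site and take up debris, astrocytes at its rim become reactive, and fibroblast-like cells from vessel walls and meninges divide and lay down collagen, which together build the glial and fibrotic scar. In bulk tissue, fewer cells of a type and less RNA per cell cannot be told apart, which holds for every result below.

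The libraries held 11159587 to 13496372 counts in sham and 13726337 to 15715484 counts in SCI, over 34745 listed genes. Markers of cord tissue were abundant in every library, with lowest levels of 419.8 CPM for the neuronal Snap25, 2301 CPM for the astrocytic Gfap and 1838 CPM for the myelin gene Mbp. Levels are in CPM, counts scaled to a common library size with TMM factors. For each gene, the 3 values of a group are given in the order of replicates 1, 2 and 3, and ± after a log2 fold change is its standard error. Within a group, log2 CPM correlated across genes at 0.978 to 0.980 in sham and 0.971 to 0.982 in SCI, against 0.880 to 0.955 between groups. On the first principal component, with 73.6% of the variance, the sham libraries lay at -67.5, -60.2 and -39.4 and the SCI libraries at 80.2, 49.6 and 37.2, so that SCI replicate 1 lay farthest from sham and sham replicate 3 nearest to SCI. Among the genes called higher below, SCI replicate 1 had the highest of the 3 SCI levels in 77.9%, and among those called lower it had the lowest in 79.2%.

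Some libraries also stood apart in transcripts of neighbouring tissues. The summed level of 21 skeletal muscle genes was 169.3, 123.7 and 109.5 CPM in sham and 3208, 512.9 and 128.7 CPM in SCI. That of 14 Schwann cell and peripheral nerve genes was 269.3, 337 and 752.7 CPM in sham and 1155, 2084 and 1113 CPM in SCI, with sham replicate 3 highest of the sham libraries. The summed level of 10 red blood cell genes was 281.5, 259.1 and 333.5 CPM in sham and 1430, 510.2 and 413.2 CPM in SCI. Scn10a, a sodium channel of sensory ganglion neurons that is named here after its values were seen, had 99 counts in SCI replicate 3 and 0 in every other library, with too few counts to be tested. The part of these tissues in the results was not tested; the main counts are given with and without SCI replicate 1 and sham replicate 3.

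Injury changed a large part of the transcriptome, and the rises were larger than the falls. By edgeR's quasi-likelihood test at a Benjamini-Hochberg adjusted p under 0.05, 6840 of 17554 genes tested were called, which is 39.0%. Of these, 3625 were higher after injury (20.7% of those tested) and 3215 were lower (18.3%). Tested against a fold change of 1.5 in place of 0, 2150 genes passed (12.2%), 1600 higher (9.11%) and 550 lower (3.13%). A rise of more than 4-fold was fitted for 676 of the higher genes, and a fall of more than 4-fold for 21 of the lower ones. The 2 groups did not overlap in 3585 of the genes called higher and 3188 of those called lower, and also in 2765 of the 10714 genes not called (25.8%). Without SCI replicate 1 and sham replicate 3 together, 2749 genes were higher and 2075 lower, and leaving out sham replicate 1 gave 2696 higher and 2037 lower. The falls beyond 1.5-fold were the least stable count, with 78 without sham replicate 1, 161 without sham replicate 2 and 257 without SCI replicate 1, and the rises beyond 1.5-fold numbered 960 without sham replicate 1 and 1054 without sham replicate 2.

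The genes called higher took 12.4% of all counts in sham and 26.2% in SCI. By library, they summed to 111300, 123200 and 134700 CPM in sham and to 310600, 250300 and 229500 CPM in SCI. The genes called lower went the other way, from 35.1% of the counts to 21.6%. Called genes were more frequent at higher levels, with 26.6% of genes between 1 and 10 CPM, 41.7% between 10 and 100 CPM and 58.8% at 100 CPM or more, and in that last class the lower genes (960) outnumbered the higher ones (594). For 5206 genes (29.7%) the 95% interval of the fold change lay within 1.5-fold either way, and 4944 of these were not called. A further 5770 genes were not called but had an interval reaching past 1.5-fold, so a change of that size lay within the error of these genes.

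**Figure D1:**
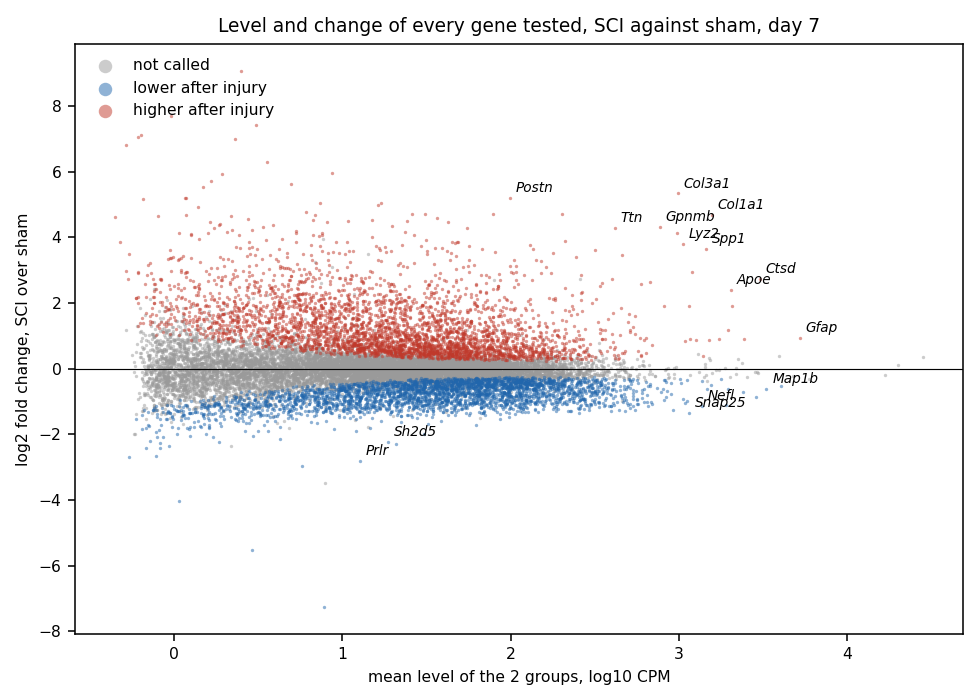
Each point is 1 of the 17554 genes tested, with the mean level of both groups (log10 CPM) on the x axis and the log2 fold change of SCI over sham on the y axis; red and blue mark genes called higher and lower by edgeR. Rises reach well past a log2 fold change of 4 (Col1a1 at 4.68), while Prlr at -2.81 is the largest fall among the named genes.

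The results below follow 54 gene lists in 11 blocks, of 1011 genes in all, of which 972 passed the filter on low counts. Of these, 462 were higher and 232 lower, or 71.4% against 39.0% of all genes tested. The median log2 fold change of all genes tested was 0.00198, and each list's median is read beside that value.

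**Figure D2:**
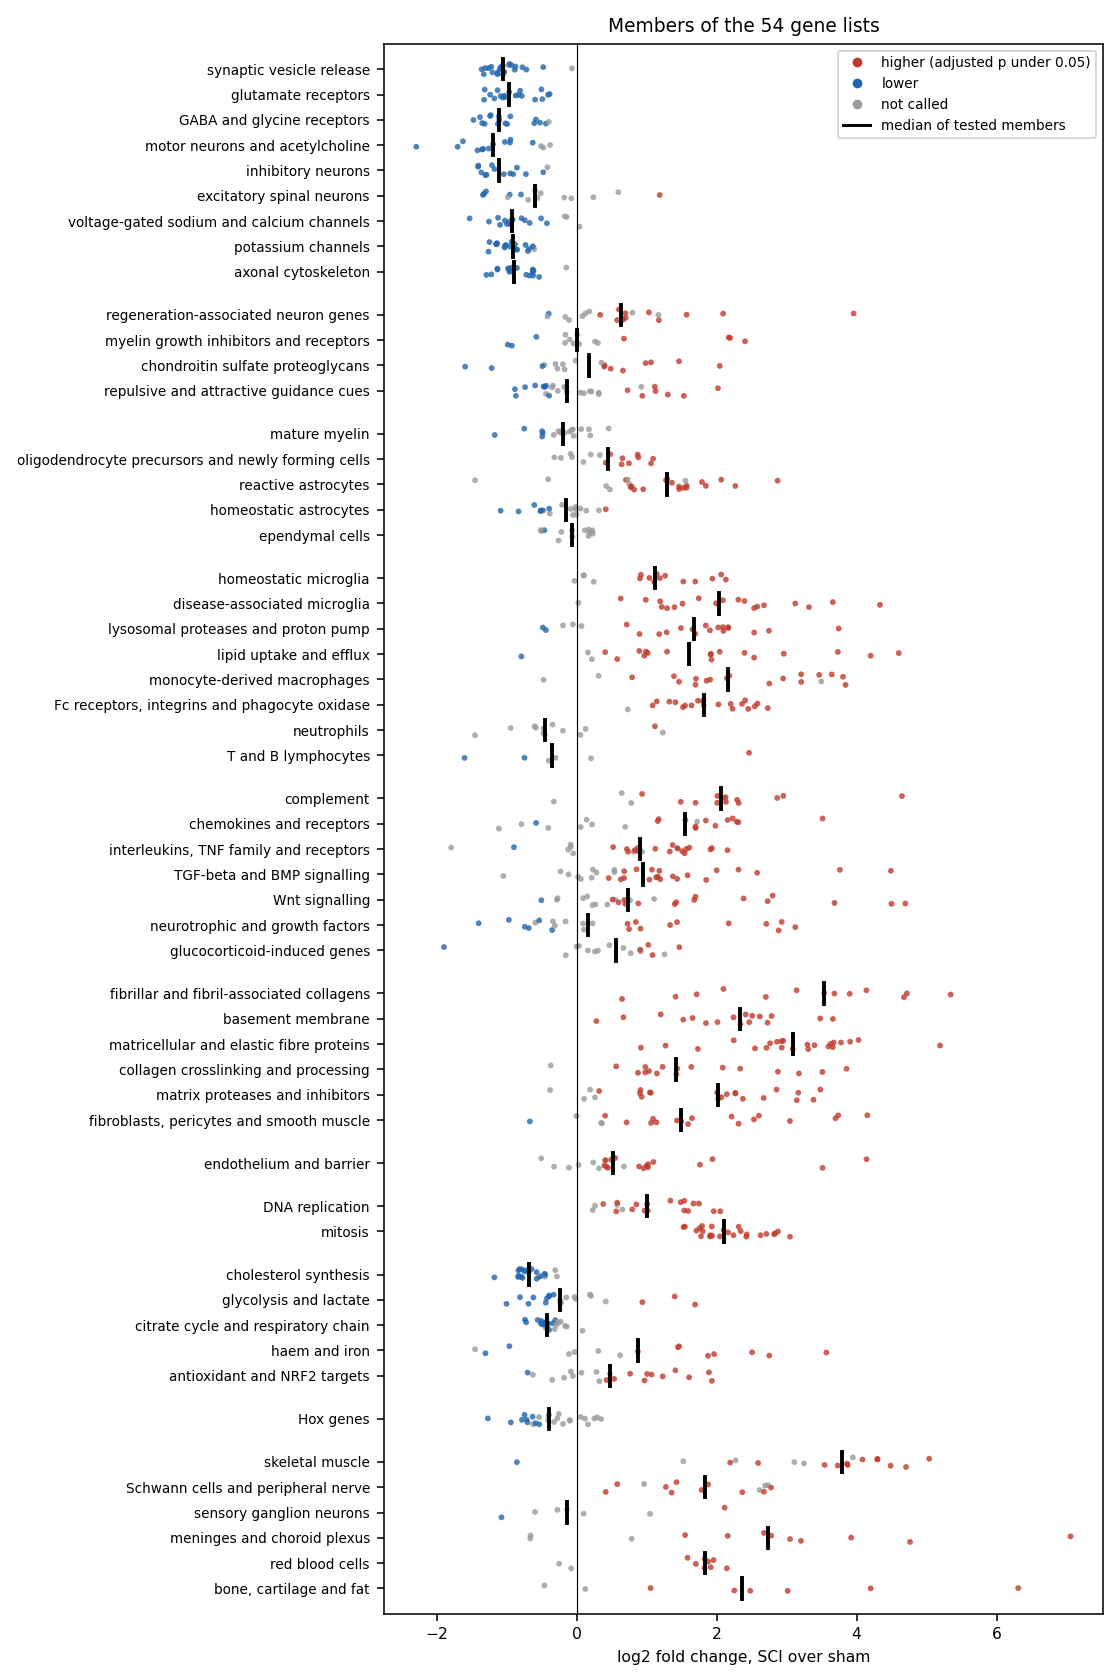
Each row is 1 gene list and each point 1 tested member, with its log2 fold change of SCI over sham on the x axis; red and blue mark members called higher and lower, grey those not called, and the black bar is the median of the tested members. The neuronal lists at the top lie to the left of 0 (synaptic vesicle release at a median of -1.06), and the collagen, matricellular and mitosis lists lie to the right (medians 3.54, 3.09 and 2.10).

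Transcripts of neurons fell almost throughout. Of 159 tested genes in the 9 neuronal lists, 136 were lower (85.5%, against 18.3% of all genes tested), 1 was higher and 22 were not called. Their median log2 fold change was -0.96, with quartiles at -1.16 and -0.67. Without SCI replicate 1 and sham replicate 3, 116 were lower and 1 higher, with a median of -0.84. These counts leave out Scn2a, which the authors list as Scn2a1 and which the sodium and calcium channel list below includes. Prph stands in both the motor neuron and the axonal cytoskeleton list. The list medians were -1.19 for motor neurons and acetylcholine (12 of 15 lower), -1.11 for inhibitory neurons (13 of 14), -1.10 for GABA and glycine receptors (16 of 17) and -1.06 for synaptic vesicle release (22 of 24). They were -0.96 for glutamate receptors (19 of 19), -0.92 for sodium and calcium channels (16 of 19), -0.91 for potassium channels (18 of 20) and -0.89 for the axonal cytoskeleton (17 of 18). The excitatory spinal neuron list had the smallest, -0.59 (5 of 15); differences between lists were not tested.

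Snap25 (chr2:136713453-136782428 in GRCm38), a subunit of the complex that fuses synaptic vesicles with the membrane, read 1807, 1595 and 1534 CPM in sham and 419.8, 774 and 735 CPM in SCI. All SCI libraries lay below all sham libraries, with SCI replicate 1 lowest (log2 fold change -1.36 ± 0.22, adjusted p = 0.0028, edgeR). Syt1, the calcium sensor of release, read 172, 179 and 169 CPM in sham and 49, 89.8 and 68.8 CPM in SCI and showed the same order of the groups (log2 fold change -1.32 ± 0.19, adjusted p = 0.002). Summed over the 24 vesicle genes, the level was 12950, 9938 and 11030 CPM in sham and 3854, 6205 and 5863 CPM in SCI.

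Marker genes of inhibitory and of excitatory neurons were among the falls, but the 2 lists differed in their sums. The inhibitory list summed to 2265, 1881 and 1936 CPM in sham and 852.5, 1152 and 1093 CPM in SCI. That of excitatory spinal neurons overlapped between groups, at 726.7, 776.2 and 763.9 CPM in sham and 624.1, 760 and 650.5 CPM in SCI. Slc6a5, the glycine transporter of inhibitory spinal terminals, read 658, 522 and 498 CPM in sham and 161, 268 and 259 CPM in SCI (log2 fold change -1.29 ± 0.21, adjusted p = 0.0026). Gad2, which makes GABA, read 151, 137 and 133 CPM in sham and 38.1, 69.2 and 56.6 CPM in SCI (log2 fold change -1.36 ± 0.20, adjusted p = 0.0019). Slc17a6, the vesicular glutamate transporter of excitatory spinal neurons, read 191, 188 and 166 CPM in sham and 45.4, 94.2 and 78.5 CPM in SCI (log2 fold change -1.32 ± 0.23, adjusted p = 0.0036). In each of these genes the 2 groups did not overlap. In the list of excitatory spinal neurons the 5 lower members included Tac2 and Cck, which encode neuropeptides, and 9 were not called. With SCI replicate 1 or sham replicate 1 left out 3 were lower, and the median was -0.37 without SCI replicate 1 and -0.20 without SCI replicate 1 and sham replicate 3. Its 1 higher member was Maf, a transcription factor that macrophages also express, at 46.2, 42.6 and 55.6 CPM in sham and 122, 111 and 96 CPM in SCI (log2 fold change 1.19 ± 0.14, adjusted p = 0.00094).

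The motor neuron and acetylcholine list held Calca, Slc5a7 and Chodl, which were among the 12 largest falls under the limits given below. Calca, which encodes the peptide CGRP of motor and sensory neurons, read 28, 49.2 and 26.9 CPM in sham and 4.32, 6.33 and 10.7 CPM in SCI (log2 fold change -2.29 ± 0.35, adjusted p = 0.0023, edgeR). Slc5a7, the choline transporter of cholinergic terminals, read 104, 104 and 78.9 CPM in sham and 20.1, 25.2 and 43.2 CPM in SCI (log2 fold change -1.70 ± 0.27, adjusted p = 0.0024). Chodl, a marker of fast motor neurons, read 39.3, 32.9 and 28.3 CPM in sham and 9.63, 8.69 and 14.4 CPM in SCI (log2 fold change -1.62 ± 0.21, adjusted p = 0.0014). Both groups were apart in all 3 genes. Chat, which makes acetylcholine, read 28.1, 16.7 and 21.9 CPM in sham and 10.2, 8.97 and 15.4 CPM in SCI, a smaller gap with an adjusted p of 0.019 that rose to 0.083 without SCI replicate 1 and sham replicate 3. In that fit 7 of the 15 members were lower, against 12 with all libraries. Rbfox3, which encodes the neuronal nuclear antigen NeuN, read 125, 81.6 and 119.8 CPM in sham and 33.7, 60.8 and 48.6 CPM in SCI (log2 fold change -1.19 ± 0.23, adjusted p = 0.0053).

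Summed over the genes called lower, the mean level was 349600 CPM in sham and 217300 CPM in SCI. The 10 genes that lost most CPM included Map1b, Map1a and Nefl, which build the axonal cytoskeleton, Atp1b1, a subunit of the sodium pump, and the noncoding RNAs Meg3 and Snhg11. Map1b read 4446, 3406 and 4173 CPM in sham and 2206, 2657 and 2934 CPM in SCI (log2 fold change -0.63 ± 0.16, adjusted p = 0.015), and its adjusted p was 0.072 without SCI replicate 1 and sham replicate 3. Nefl, whose exons share 32.8% of their bases with its neighbour Nefm in the GENCODE M21 annotation and whose count is therefore uncertain, read 2152, 1723 and 1762 CPM in sham and 615, 864 and 1098 CPM in SCI.

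The 12 largest falls among called genes with at least 1 CPM in every library and a mean of at least 20 CPM in sham lay between -1.48 and -2.81. Prlr, the prolactin receptor (chr15:10177238-10349180), fell most and read 22.1, 24.1 and 20.8 CPM in sham and 2.16, 4.52 and 2.89 CPM in SCI (log2 fold change -2.81 ± 0.25, adjusted p = 0.00066). Sh2d5, an adaptor of the postsynapse, read 39, 35.1 and 18.2 CPM in sham and 5.63, 8.205 and 5.85 CPM in SCI (log2 fold change -2.23 ± 0.30, adjusted p = 0.0014). Tekt5, a tektin of cilia and flagella, read 24.1, 22.8 and 21.2 CPM in sham and 3.67, 8.27 and 7.51 CPM in SCI (log2 fold change -1.81 ± 0.27, adjusted p = 0.0021). The groups did not overlap in any of them. The others were Calca, Slc5a7 and Chodl, the perineuronal net link protein Hapln1, the sodium channel subunit Scn2b, Mal2, Olfm3, Nrn1 and Prrt2. Exons of Nrn1 (22.3% of bases) and Prrt2 (92.4%) overlap a neighbouring gene, so both values are uncertain.

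Genes known for axon growth and for its inhibition were mixed. Of 20 tested regeneration-associated neuron genes, 11 were higher and 1, Stmn4, was lower, with a median of 0.64. The call of Stmn4 was lost without SCI replicate 1 (adjusted p = 0.05), where 7 members were higher, as in the fit without SCI replicate 2. Its call was also lost without sham replicate 1, without SCI replicate 1 and sham replicate 3, and with the replicate number as a block. Atf3, a transcription factor that injured neurons switch on, read 4.08, 6.96 and 10.5 CPM in sham and 37.8, 27.5 and 26.8 CPM in SCI (log2 fold change 2.09 ± 0.31, adjusted p = 0.002, edgeR). Klf6, another injury-induced factor, read 42.4, 44.7 and 45 CPM in sham and 123, 83.9 and 91.7 CPM in SCI (log2 fold change 1.18 ± 0.15, adjusted p = 0.0012). The growth cone genes Gap43, Basp1 and Sox11, named here after their values were seen, were not called, at log2 fold changes of -0.16, -0.11 and 0.08.

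Of 15 genes for myelin growth inhibitors and their receptors, 4 were higher and 3 lower, shares near the 20.7% and 18.3% of all genes tested, and 2 were higher without sham replicate 1. Pirb, a receptor for myelin inhibitors that myeloid cells also carry, read 5.11, 2.73 and 4.895 CPM in sham and 29, 25 and 14 CPM in SCI (log2 fold change 2.41 ± 0.33, adjusted p = 0.0015). Omg, an inhibitor on the myelin surface, and Lingo1, a subunit of the Nogo receptor complex on neurons, were lower, with log2 fold changes of -0.57 and -0.92; with all 9 libraries in the fit the adjusted p of Omg was 0.059. Chondroitin sulfate proteoglycan genes were 8 higher and 3 lower of 18. Among them Vcan, the versican core protein, read 90.1, 113 and 136 CPM in sham and 383, 273 and 279 CPM in SCI (log2 fold change 1.46 ± 0.19, adjusted p = 0.0012), Dse, an enzyme that modifies the sugar chain, read 7.19, 6.61 and 9.42 CPM in sham and 39.7, 31.9 and 24.5 CPM in SCI (log2 fold change 2.05 ± 0.22, adjusted p = 0.00076), and the link proteins of perineuronal nets fell, Hapln4 by 1.21 and Hapln1 by 1.59 on the log2 scale. Of 29 guidance genes, 7 were higher and 8 lower, against 20.7% and 18.3% of all genes tested, and 5 were lower without sham replicate 1. The semaphorin receptors Nrp1, Nrp2 and Plxnb2 rose by log2 fold changes of 1.53, 0.94 and 1.30.

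Of 18 mature myelin genes tested, 5 were lower (27.8%, against 18.3% of all genes tested) and none higher. The median log2 fold change was -0.19, with 14 members negative and 4 positive. Of the 13 not called, 9 had an interval within 1.5-fold. Opalin, a late oligodendrocyte membrane protein, fell most and read 44.4, 56 and 37.7 CPM in sham and 17.6, 25.1 and 18.7 CPM in SCI (log2 fold change -1.17 ± 0.19, adjusted p = 0.0027, edgeR). Mog, on the outer face of myelin, read 164, 175 and 183 CPM in sham and 110.0, 118 and 143 CPM in SCI (log2 fold change -0.49 ± 0.12, adjusted p = 0.013), without overlap, and its adjusted p was 0.084 without SCI replicate 1 and sham replicate 3. Mbp, a main structural protein of myelin, read 1933, 2573 and 2167 CPM in sham and 3621, 1838 and 2088 CPM in SCI; the groups overlapped, and the sign of its fold change (log2 fold change 0.18 ± 0.25, adjusted p = 0.61) rests on SCI replicate 1, without which it was -0.18. In the fit without SCI replicate 1 and sham replicate 3, 2 members of the list were lower, as in that without sham replicate 2, and 3 were lower without sham replicate 3, SCI replicate 1 or SCI replicate 2.

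Oligodendrocyte precursor genes rose in 9 of 16 tested members and fell in none, with a median of 0.45. Pdgfra, a growth factor receptor of precursors and of fibroblasts, read 67.4, 78.6 and 76.4 CPM in sham and 184, 144 and 145 CPM in SCI (log2 fold change 1.09 ± 0.13, adjusted p = 0.00095). Enpp6, a marker of newly forming oligodendrocytes, read 44.7, 57.7 and 51.8 CPM in sham and 81, 76 and 84 CPM in SCI (log2 fold change 0.64 ± 0.12, adjusted p = 0.004). Cspg4, the NG2 proteoglycan of precursors and pericytes, rose by a log2 fold change of 1.06. The groups did not overlap in these 3 genes.

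Reactive astrocyte genes rose in 18 of 25 tested members and fell in none, with a median of 1.30. Gfap, the intermediate filament of astrocytes (chr11:102887336-102900912), read 2301, 4199 and 4169 CPM in sham and 7047, 6477 and 7114 CPM in SCI; SCI lay above sham in all libraries, and sham replicate 1 lay well below the other two (log2 fold change 0.95 ± 0.23, adjusted p = 0.012, edgeR). Vim, another intermediate filament that fibroblasts and macrophages share, read 127, 218 and 244 CPM in sham and 912, 627 and 578 CPM in SCI (log2 fold change 1.85 ± 0.27, adjusted p = 0.0018). Emp1, a membrane protein of reactive astrocytes, read 11.3, 19.998 and 20.02 CPM in sham and 174, 112 and 90.1 CPM in SCI (log2 fold change 2.87 ± 0.30, adjusted p = 0.00073). Nes, the nestin filament of dividing and reactive cells, read 42.2, 59.4 and 77.6 CPM in sham and 232, 217 and 171 CPM in SCI (log2 fold change 1.79 ± 0.22, adjusted p = 0.0011).

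Genes of resting astrocytes had a median of -0.15. Of 18 tested, 7 were lower, 1 was higher (Aldh1l1, log2 fold change 0.42), and 8 of the 10 not called had an interval within 1.5-fold. Without sham replicate 1, and likewise without sham replicate 2, 4 were lower, and 3 without SCI replicate 1 and sham replicate 3. Slc1a2, the main glutamate transporter, read 4751, 5249 and 4313 CPM in sham and 3356, 2910.3 and 3772 CPM in SCI (log2 fold change -0.51 ± 0.14, adjusted p = 0.024); without sham replicate 1 its adjusted p was 0.061. Slc7a10, an amino acid transporter, read 98, 74.5 and 77.7 CPM in sham and 40.5, 49.1 and 51.2 CPM in SCI (log2 fold change -0.83 ± 0.14, adjusted p = 0.0033). Aqp4, the water channel of astrocyte endfeet, read 942, 1732 and 1319 CPM in sham and 1635, 1476 and 1872 CPM in SCI, and the groups overlapped (log2 fold change 0.32 ± 0.21, adjusted p = 0.27). Ependymal genes, expressed by the ciliated cells that line the central canal, were not called in 12 of 13 tested members, 4 of them with an interval within 1.5-fold and 8 with one reaching past it. Foxj1, the factor that makes motile cilia, read 29.6, 28.7 and 30.04 CPM in sham and 24, 31.6 and 29 CPM in SCI, and its interval lay between -0.36 and 0.23 on the log2 scale. Hydin, the 1 ependymal gene called lower, lost its call in each fit that left out a library.

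**Figure D3:**
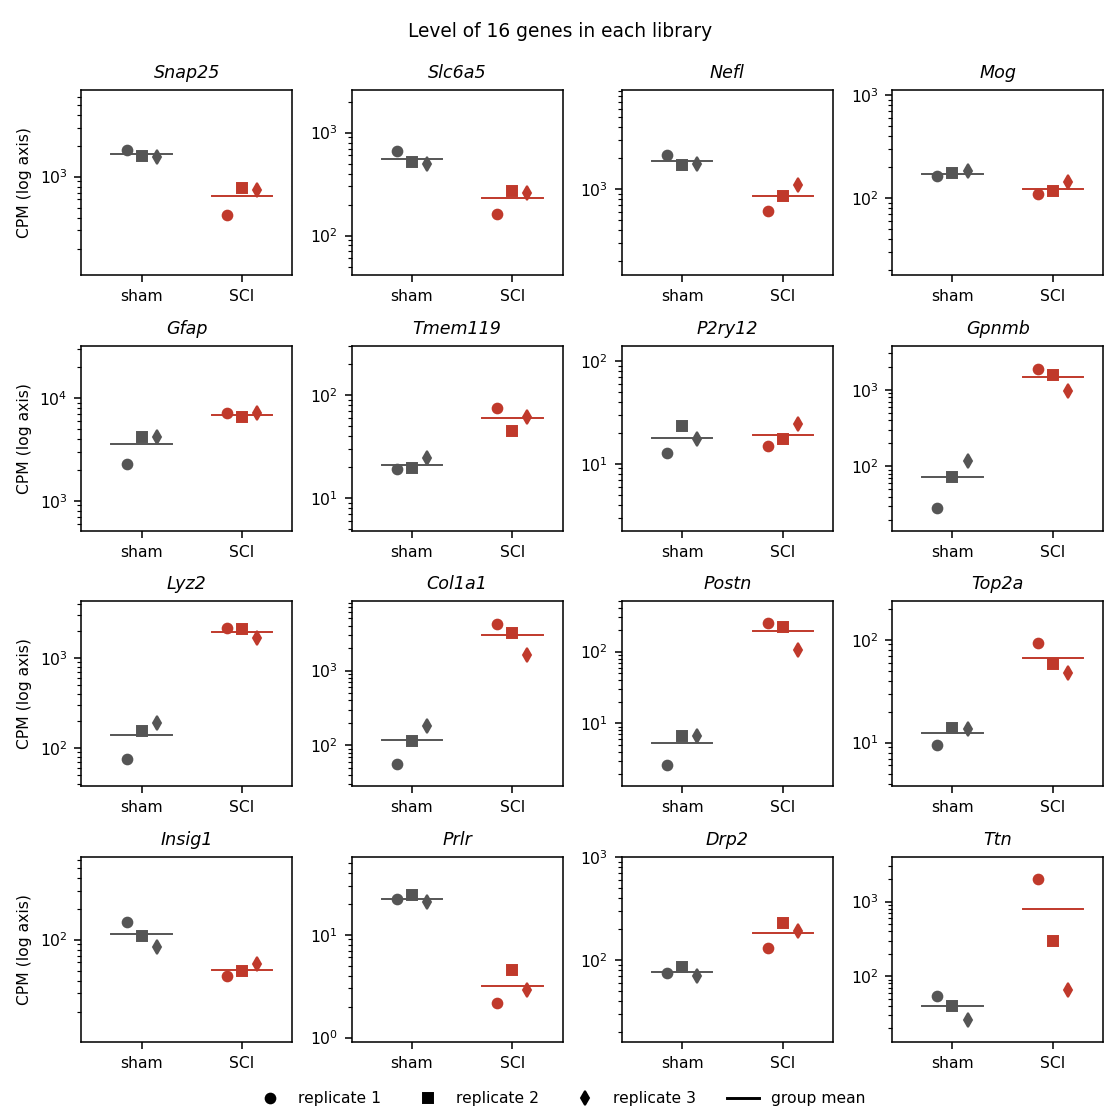
Each panel shows 1 gene, with its CPM on a log axis in the 3 sham (grey) and 3 SCI (red) libraries; circles, squares and diamonds are replicates 1, 2 and 3 and the bars are group means. The groups are apart in each gene but P2ry12, and in Ttn 1 library sets much of the gap.

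Myeloid transcripts formed a large block of rises. In 8 lists of myeloid and lymphoid genes, 100 of 134 tested genes were higher (74.6%, against 20.7% of all genes tested) and 5 were lower, with a median of 1.52. Without SCI replicate 1 and sham replicate 3, 95 were higher and 4 lower. Homeostatic microglia genes were higher in 12 of 16. Tmem119, a surface protein of resident microglia, read 19.3, 19.5 and 24.2 CPM in sham and 75, 44.9 and 61.3 CPM in SCI (log2 fold change 1.52 ± 0.20, adjusted p = 0.0013, edgeR), without overlap. P2ry12, the receptor for nucleotides on resting microglia, read 12.7, 23.2 and 17.4 CPM in sham and 14.9, 17.6 and 24.6 CPM in SCI, and the groups overlapped (log2 fold change 0.10 ± 0.25, adjusted p = 0.79). Olfml3, a secreted protein of microglia, read 37.5, 47 and 61.8 CPM in sham and 244, 187 and 182 CPM in SCI (log2 fold change 2.07 ± 0.20, adjusted p = 0.00066).

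Genes of the disease-associated microglia state rose in 19 of 20 tested members, with a median of 2.04. Gpnmb, a glycoprotein of lipid-laden phagocytes (chr6:49036546-49070929), read 28.7, 73.1 and 117 CPM in sham and 1883, 1575 and 949 CPM in SCI (log2 fold change 4.33 ± 0.51, adjusted p = 0.00097). Spp1, the secreted protein osteopontin, read 176, 219 and 244 CPM in sham and 4148, 2232 and 1691 CPM in SCI (log2 fold change 3.66 ± 0.34, adjusted p = 0.00066). Trem2, a lipid-sensing receptor, and Tyrobp, its signalling partner, rose by log2 fold changes of 2.09 and 2.58. In each of these the lowest SCI library was more than 2 times the highest sham library. By the authors' FPKM, which scale counts by gene length, Gpnmb moved from rank 4031 of the 17541 nuclear genes tested to rank 79, and Spp1 from rank 684 to rank 23.

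Monocyte and macrophage genes rose in 17 of 20 (12 with at least 10 counts required in every library). Lyz2, the lysozyme of myeloid cells, read 75.3, 156 and 189 CPM in sham and 2132, 2104 and 1646 CPM in SCI (log2 fold change 3.80 ± 0.33, adjusted p = 0.00066), and by FPKM it went from rank 153 to rank 7. F13a1, a marker of monocyte-derived macrophages, read 6.31, 3.52 and 8.38 CPM in sham and 129.5, 71.3 and 62.7 CPM in SCI (log2 fold change 3.84 ± 0.37, adjusted p = 0.00069). Mrc1, the mannose receptor, read 3.596, 3.35 and 8.604 CPM in sham and 63.2, 42.5 and 39.6 CPM in SCI (log2 fold change 3.21 ± 0.36, adjusted p = 0.00089). Of the Fc receptor, integrin and phagocyte oxidase genes, 20 of 21 were higher. Cybb, the catalytic subunit of the oxidase, read 12.7, 16.4 and 17.4 CPM in sham and 96.1, 83.4 and 67 CPM in SCI (log2 fold change 2.41 ± 0.18, adjusted p = 0.00066), and Fcgr2b, an inhibitory Fc receptor, rose by a log2 fold change of 2.36.

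Phagocyte genes for digesting and exporting lipid rose with them. In the lipid list 17 of 20 tested members were higher, with a median of 1.60 that was 1.18 without SCI replicate 1. Cd36, a scavenger receptor for oxidised lipid, read 3.44, 1.67 and 3.49 CPM in sham and 113, 59.9 and 38.5 CPM in SCI (log2 fold change 4.60 ± 0.46, adjusted p = 0.0007, edgeR). Apoe, the main lipid carrier of the nervous system, read 631, 516 and 786 CPM in sham and 4427, 4138 and 1627 CPM in SCI, with SCI replicate 3 lowest of the injured libraries (log2 fold change 2.40 ± 0.36, adjusted p = 0.0021). Plin2, the coat of lipid droplets, read 19.3, 26.4 and 27.2 CPM in sham and 286, 161 and 121 CPM in SCI (log2 fold change 2.96 ± 0.32, adjusted p = 0.00076).

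Lysosomal genes rose in 17 of 22, and 2 fell. Ctsd (chr7:142371148-142388038), the protease cathepsin D, read 581, 852 and 913 CPM in sham and 6761, 4582 and 4417 CPM in SCI (log2 fold change 2.75 ± 0.24, adjusted p = 0.00066), with 34.4% of its exon bases shared with a predicted gene and so an uncertain count. Ctsb, the protease cathepsin B, read 732, 909.6 and 962 CPM in sham and 4143, 2878 and 2726 CPM in SCI (log2 fold change 1.90 ± 0.19, adjusted p = 0.00072), and Laptm5, a lysosomal membrane protein of immune cells, read 57.9, 69.7 and 81.6 CPM in sham and 352, 287 and 256 CPM in SCI (log2 fold change 2.10 ± 0.17, adjusted p = 0.00066). The members that fell were Atp6v1a and Atp6v1h, subunits of the proton pump that also fills synaptic vesicles. Atp6v1a read 421, 398 and 365 CPM in sham and 290.0, 275 and 282 CPM in SCI (log2 fold change -0.48 ± 0.10, adjusted p = 0.006). Atp6v1h lost its call under 4 of the alternatives, including the fit without SCI replicate 2 (adjusted p = 0.057).

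Promoters of these lysosomal genes were searched for the CLEAR element, which the factor TFEB binds, spelled TCACGTGA and read on both strands. The windows are RefSeq's, GRCm38.p6, from 250 bases before to 50 after the start of a gene, and 1 window per gene was used. The element was in 4 of the 17 windows of the lysosomal list (23.53%), in 1.74% of the 11751 windows of genes tested and in 1.01% of all 27025. By call, it was in 1.8% of the windows of genes called higher, 1.1% of those called lower and 1.91% of those not called. The same element stands in the window of a gene that rose and of one that fell, and both are shown with the element in capitals. Within the 100 bases nearest the start, 2 of the 17 windows held it.
Ctsd, minus strand, chr7:142387778-142388077: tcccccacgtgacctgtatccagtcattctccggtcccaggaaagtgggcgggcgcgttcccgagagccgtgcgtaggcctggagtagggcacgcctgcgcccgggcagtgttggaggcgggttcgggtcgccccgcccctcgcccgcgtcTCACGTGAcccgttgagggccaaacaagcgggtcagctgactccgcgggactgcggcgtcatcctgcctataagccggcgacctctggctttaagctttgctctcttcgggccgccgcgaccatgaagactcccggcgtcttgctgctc
Atp6v1a, minus strand, chr16:44139210-44139509: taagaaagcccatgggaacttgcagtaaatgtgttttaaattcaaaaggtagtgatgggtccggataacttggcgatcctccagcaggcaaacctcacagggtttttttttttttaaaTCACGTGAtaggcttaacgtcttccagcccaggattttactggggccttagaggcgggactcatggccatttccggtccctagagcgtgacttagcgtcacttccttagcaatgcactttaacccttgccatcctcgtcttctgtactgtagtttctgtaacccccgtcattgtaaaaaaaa

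The 15 neutrophil genes summed to 141.5, 64.75 and 179.3 CPM in sham and to 150.6, 151.7 and 101.9 CPM in SCI. The 17 lymphocyte genes summed to 55.69, 44.4 and 56.15 CPM in sham and to 26.78, 39.63 and 37.38 CPM in SCI. Of 13 tested neutrophil genes, 1 was higher, Csf3r, a cytokine receptor that microglia also express (log2 fold change 1.12 ± 0.13, adjusted p = 0.00091), and the intervals of the other 12 all reached past 1.5-fold. S100a8, an abundant neutrophil protein, read 24.1, 4.93 and 14.2 CPM in sham and 14.6, 10.4 and 6.495 CPM in SCI, with sham replicate 1 highest of all; without that library its log2 fold change turned from -0.45 to 0.13, as did the median of the list. Of 17 lymphocyte genes, 11 had too few counts to be tested, among them Cd3e with 3 to 7 counts in sham and 5 to 8 in SCI. Cd4, which macrophages also carry, rose from a mean of 0.341 to 1.95 CPM, and the immunoglobulin genes Ighm and Igkc fell by 0.74 and 1.60 on the log2 scale, Ighm with an adjusted p of 0.088 without sham replicate 1.

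Among signals, complement rose in 12 of 16 tested members (10 with at least 10 counts required in every library) with a median of 2.07. C1qa, C1qb and C1qc, the subunits of the first component, rose by log2 fold changes of 2.13, 2.01 and 2.29, and C1qa read 89.1, 123 and 144 CPM in sham and 656, 436 and 472 CPM in SCI. C3ar1, the receptor for the C3 fragment, read 14.5, 27.8 and 26.3 CPM in sham and 232, 149.9 and 149 CPM in SCI (log2 fold change 2.95 ± 0.28, adjusted p = 0.00066, edgeR). The groups did not overlap in these genes.

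Chemokine ligands and receptors were higher in 12 of 21 (9 with at least 10 counts required in every library) and lower in 1. Cxcr4, the receptor for Cxcl12, read 7.59, 7.14 and 7.42 CPM in sham and 47.6, 32.7 and 27.8 CPM in SCI (log2 fold change 2.29 ± 0.21, adjusted p = 0.00066). Pf4, a chemokine of platelets and macrophages, read 0.959, 0.529 and 0.742 CPM in sham and 13, 6.12 and 6.71 CPM in SCI (log2 fold change 3.51 ± 0.40, adjusted p = 0.00091). Cx3cl1, the neuronal ligand of the microglial receptor Cx3cr1, was lower at 146, 113 and 159 CPM in sham and 74.8, 112 and 93.2 CPM in SCI (log2 fold change -0.58 ± 0.18, adjusted p = 0.032), a call lost in most fits that left out a library and with an adjusted p of 0.17 without SCI replicate 1 and sham replicate 3. In the interleukin and TNF list, 17 of 26 were higher and 1 lower, with 11 higher without sham replicate 1 or without SCI replicate 1. Tnfrsf1b, a TNF receptor of immune cells, read 19.6, 17 and 17.7 CPM in sham and 102, 77 and 62.7 CPM in SCI (log2 fold change 2.16 ± 0.18, adjusted p = 0.00066), and Il4ra and Il13ra1, receptor chains for interleukins 4 and 13, rose by log2 fold changes of 1.93 and 1.57. The lower member was Tnfsf13b, the B cell survival factor BAFF, at 5.11, 5.198 and 5.49 CPM in sham and 2.88, 2.43 and 3.18 CPM in SCI (log2 fold change -0.89 ± 0.21, adjusted p = 0.01). The ligands Il6 and Il10, named here after their values were seen, had at most 11 and 2 counts in any library and were not tested.

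TGF-beta and BMP signalling genes were higher in 20 of 30 and lower in none. Tgfb1, a ligand that drives scar formation, read 14.4, 16.1 and 16.8 CPM in sham and 78.3, 63.9 and 47 CPM in SCI (log2 fold change 2.0 ± 0.19, adjusted p = 0.00066). Tgfbr2, its receptor, read 43.1, 50.4 and 63.6 CPM in sham and 235, 172 and 160.3 CPM in SCI (log2 fold change 1.85 ± 0.19, adjusted p = 0.00072). Tgfbi, a matrix protein induced by the ligand, rose by a log2 fold change of 2.31. Wnt signalling genes were higher in 15 of 26 (11 with at least 10 counts required in every library) and lower in 1. Wnt4, a ligand, read 2.32, 4.14 and 4.302 CPM in sham and 27.4, 23.6 and 24 CPM in SCI (log2 fold change 2.80 ± 0.23, adjusted p = 0.00066), and Sfrp4, a secreted Wnt antagonist, read 1.598, 2.47 and 2.08 CPM in sham and 57.5, 56.3 and 24.9 CPM in SCI (log2 fold change 4.50 ± 0.37, adjusted p = 0.00066). Sfrp1, another secreted antagonist, was the lower member, at 31.6, 24.5 and 30.3 CPM in sham and 23.4, 20.7 and 16.8 CPM in SCI (log2 fold change -0.50 ± 0.16, adjusted p = 0.038), a call lost in 4 of the 6 fits that left out a library, with adjusted p of 0.122 without sham replicate 1.

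Growth factor genes went both ways, with 11 higher and 6 lower of 24, and 7 higher without sham replicate 1 or without SCI replicate 2. Igf1, an insulin-like growth factor made by phagocytes, read 9.75, 22.7 and 28.6 CPM in sham and 242, 148 and 144 CPM in SCI (log2 fold change 3.12 ± 0.38, adjusted p = 0.0011). Fgf9, a factor expressed by neurons, read 41.5, 34.4 and 30.9 CPM in sham and 10.02, 15.4 and 15.1 CPM in SCI (log2 fold change -1.40 ± 0.19, adjusted p = 0.0016). Ntrk3, the receptor for neurotrophin 3, fell by 0.74 on the log2 scale. Of 16 glucocorticoid-induced genes, 4 were higher and 11 were not called. That share is near the 20.7% of all genes tested, and 2 were higher without sham replicate 1, sham replicate 2 or SCI replicate 3. Their median of 0.57 was 0.24 without SCI replicate 1 and 0.89 without sham replicate 3. Hsd11b1, the enzyme that regenerates active glucocorticoid, was lower, at 22.4, 15.5 and 18.9 CPM in sham and 4.39, 5.77 and 5.12 CPM in SCI (log2 fold change -1.89 ± 0.19, adjusted p = 0.00072).

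Genes of the fibrotic scar rose almost throughout. Of 114 tested genes in 6 lists, 105 were higher (92.1%, against 20.7% of all genes tested) and 1 was lower, with a median of 2.27. The counts were 100 higher and 1 lower without SCI replicate 1 and sham replicate 3. All 13 fibrillar and fibril-associated collagens, all 17 basement membrane genes and all 23 matricellular and elastic fibre genes tested were higher. The summed collagen level was 462.3, 640.5 and 912.1 CPM in sham and 12640, 9590 and 5297 CPM in SCI.

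Col3a1, the chain of type III collagen (chr1:45311538-45349706), had the largest rise among the named genes. It read 21.5, 39.2 and 80.6 CPM in sham and 2685, 1951 and 1106 CPM in SCI (log2 fold change 5.34 ± 0.55, adjusted p = 0.00073, edgeR), and by FPKM it moved from rank 7808 to rank 86. Col1a1, a chain of type I collagen (chr11:94936224-94953042), read 56.4, 115 and 182 CPM in sham and 4245, 3168 and 1630.4 CPM in SCI (log2 fold change 4.68 ± 0.51, adjusted p = 0.00081), and moved from rank 2175 to rank 30. Col6a3, a chain of the beaded filaments of type VI collagen, read 12.6, 13.7 and 18.2 CPM in sham and 604, 360.2 and 209 CPM in SCI (log2 fold change 4.72 ± 0.39, adjusted p = 0.00066). In all 3 genes SCI replicate 3 was the lowest injured library and sham replicate 3 the highest sham library, and the groups were far apart.

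Matricellular proteins, which tune how cells hold to the matrix, rose with the collagens. Postn, periostin, read 2.64, 6.61 and 6.601 CPM in sham and 253, 220.1 and 106 CPM in SCI (log2 fold change 5.19 ± 0.43, adjusted p = 0.00066). Fn1, fibronectin, read 224, 208 and 384 CPM in sham and 3229.6, 1707 and 1369 CPM in SCI (log2 fold change 2.95 ± 0.37, adjusted p = 0.0012). Fbln2, a fibulin of elastic fibres, read 6.87, 7.93 and 16 CPM in sham and 131, 97 and 79 CPM in SCI (log2 fold change 3.31 ± 0.33, adjusted p = 0.00071). Smoc2, a calcium-binding matrix protein, and Col8a1, a short-chain collagen of vessel walls, rose by log2 fold changes of 4.72 and 4.71. Both were among the 12 largest rises. That ranking took called genes without overlap of the groups, with at least 1 CPM in every library and a mean of at least 20 CPM in SCI.

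Enzymes that process collagen were higher in 16 of 17. Lox, which crosslinks collagen and elastin, read 2.797, 3.79 and 11.9 CPM in sham and 117, 94.9 and 58.5 CPM in SCI (log2 fold change 3.86 ± 0.50, adjusted p = 0.0013). Serpinh1, the collagen chaperone HSP47, read 20.9, 19.6 and 21.1 CPM in sham and 168, 118 and 166 CPM in SCI (log2 fold change 2.88 ± 0.15, adjusted p = 0.00066), the smallest standard error of these. Matrix proteases and inhibitors were higher in 19 of 23. Mmp14, a membrane-bound collagenase, read 27.2, 30.9 and 29.1 CPM in sham and 317, 187 and 128 CPM in SCI (log2 fold change 2.86 ± 0.30, adjusted p = 0.00076), and Mmp2, which it activates, rose by a log2 fold change of 3.14. Basement membrane genes had a median of 2.34. Lama4, a laminin chain of vessels, read 19.7, 18.6 and 26.4 CPM in sham and 129, 112 and 87 CPM in SCI (log2 fold change 2.34 ± 0.19, adjusted p = 0.00066), and Nid2, a nidogen, rose by 2.51.

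Fibroblast, pericyte and smooth muscle genes were higher in 17 of 21. Pdgfrb, the growth factor receptor of pericytes, read 40.9, 44.8 and 45.3 CPM in sham and 173, 119 and 103 CPM in SCI (log2 fold change 1.59 ± 0.19, adjusted p = 0.00095). Anpep, a peptidase of pericytes and myeloid cells, read 5.75, 7.14 and 10.8 CPM in sham and 133, 109 and 76.2 CPM in SCI (log2 fold change 3.74 ± 0.28, adjusted p = 0.00066). The 1 lower member was Thy1, which neurons express strongly, at 431, 338 and 399 CPM in sham and 226, 264 and 246 CPM in SCI (log2 fold change -0.67 ± 0.12, adjusted p = 0.0039). Genes of the meninges, also a source of fibroblasts, were higher in 9 of 12 (5 with at least 10 counts required in every library), such as Slc47a1, a membrane transporter, at 0.2397, 0.352 and 0.668 CPM in sham and 14.1, 13.8 and 7.43 CPM in SCI (log2 fold change 4.76 ± 0.41, adjusted p = 0.00066). Their summed level overlapped between groups, at 210.3, 226.9 and 368.8 CPM in sham and 366.8, 317.4 and 343 CPM in SCI.

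**Figure D4:**
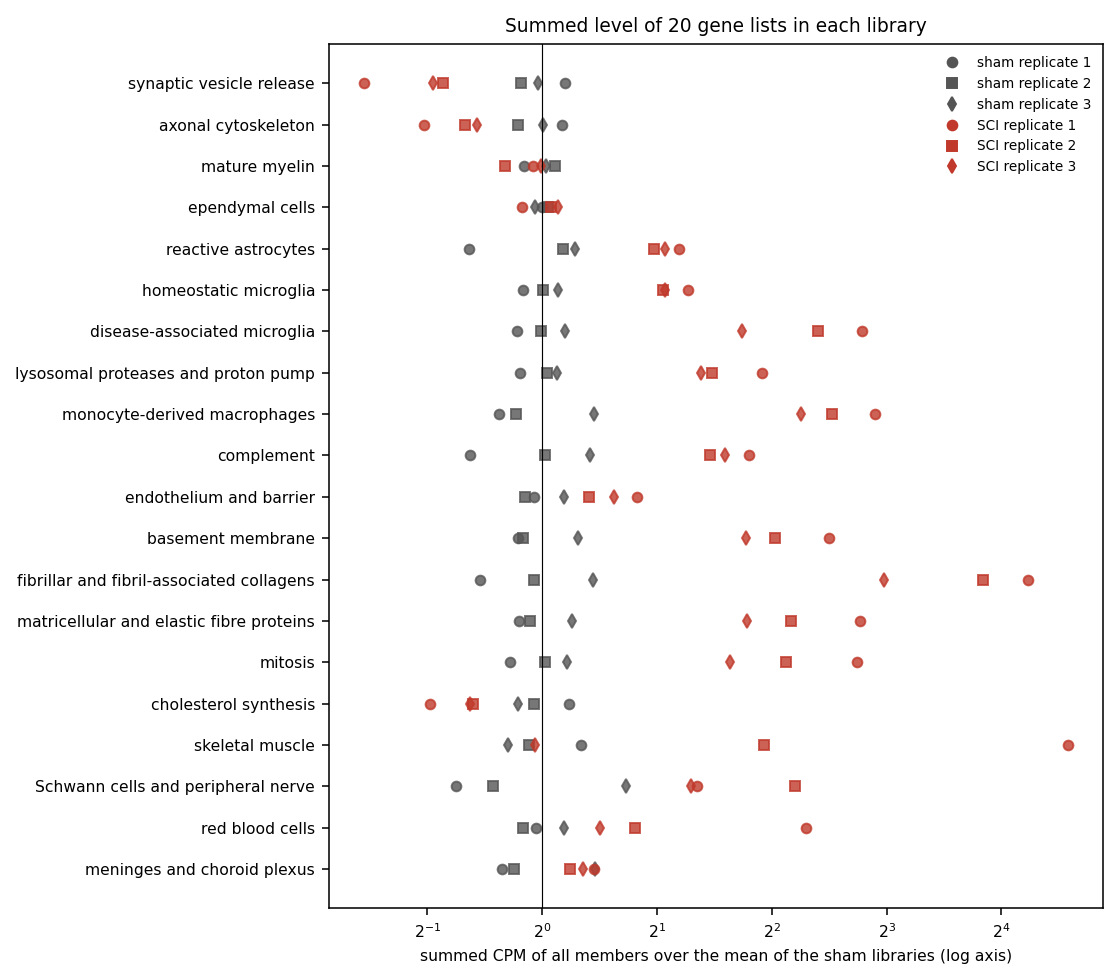
Each row is 1 gene list, with the summed CPM of its members in each library divided by the mean of the sham libraries on a log x axis; grey marks sham, red marks SCI, and circles, squares and diamonds are replicates 1, 2 and 3. In all SCI libraries the synaptic vesicle and axonal cytoskeleton sums lie to the left of sham and the collagen sums far to the right. Mature myelin and ependymal sums overlap, and skeletal muscle is high in SCI replicates 1 and 2 alone.

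Vessel genes also rose, with a smaller median than the matrix lists. Of 24 endothelial and barrier genes, 16 were higher and none lower, with a median of 0.52. Pecam1, an adhesion molecule between endothelial cells, read 28.2, 22.5 and 32.3 CPM in sham and 67.7, 47.6 and 50.8 CPM in SCI (log2 fold change 1.00 ± 0.18, adjusted p = 0.0038, edgeR). Cdh5, the cadherin of endothelial junctions, read 27.6, 22.1 and 34.6 CPM in sham and 141, 97.8 and 85.2 CPM in SCI (log2 fold change 1.94 ± 0.22, adjusted p = 0.00095). In the same list Esm1, a marker of endothelial tip cells, read 0.3196, 0.617 and 0.742 CPM in sham and 14.6, 6.88 and 8.66 CPM in SCI (log2 fold change 4.14 ± 0.41, adjusted p = 0.00071), and Angpt2, which loosens vessel walls, read 1.68, 0.793 and 2.08 CPM in sham and 28.4, 10.8 and 13.7 CPM in SCI (log2 fold change 3.51 ± 0.46, adjusted p = 0.0013).

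Cell division genes rose in every SCI library. All 25 mitosis genes were higher, with a median of 2.10, and 17 of 21 DNA replication genes, with a median of 1.01. The mitosis genes summed to 82.46, 102.2 and 116.3 CPM in sham and to 672.3, 436.7 and 312.6 CPM in SCI. Top2a, the topoisomerase that untangles chromosomes, read 9.51, 14 and 13.5 CPM in sham and 93.6, 57.5 and 47.4 CPM in SCI (log2 fold change 2.42 ± 0.27, adjusted p = 0.00089). Cenpf, a kinetochore protein, read 6.55, 8.55 and 9.35 CPM in sham and 49.96, 33.8 and 25.9 CPM in SCI (log2 fold change 2.16 ± 0.26, adjusted p = 0.00099). Mcm6, a subunit of the replication helicase, read 9.27, 11.8 and 9.72 CPM in sham and 39.7, 26.9 and 22.7 CPM in SCI (log2 fold change 1.54 ± 0.22, adjusted p = 0.0019). Of these, 24 mitosis genes and 10 replication genes were higher without SCI replicate 1 and sham replicate 3.

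Mitosis genes are known to share 2 promoter elements, the cell cycle homology region CHR, spelled TTTGAA, and the CCAAT box, spelled CCAAT. Both were searched on both strands in the same 300-base windows. The CHR was in 16 of 21 mitosis windows (76.19%), in 11.72% of the windows of genes tested, in 13.94% of those of genes called higher and in 10.36% of those called lower. The CCAAT box was in 19 of the 21 (90.48%) and in 38.09% of the windows of genes tested. By call, it was in 35.47% of the windows of genes called higher, 36.04% of those called lower and 39.68% of those not called. Within the 100 bases nearest the start, the CHR was in 15 and the CCAAT box in 12 of the 21 windows. The windows of the 2 members with the smallest p among those holding the CHR are printed, with each match to either element in capitals.
Top2a, minus strand, chr11:99024140-99024439: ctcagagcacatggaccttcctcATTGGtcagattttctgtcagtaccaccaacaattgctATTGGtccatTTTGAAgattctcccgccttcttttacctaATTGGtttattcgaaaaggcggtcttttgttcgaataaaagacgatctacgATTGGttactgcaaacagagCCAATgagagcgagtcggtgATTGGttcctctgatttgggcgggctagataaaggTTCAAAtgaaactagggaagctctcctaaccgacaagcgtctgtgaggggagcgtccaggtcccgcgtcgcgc
Cenpf, minus strand, chr1:189688037-189688336: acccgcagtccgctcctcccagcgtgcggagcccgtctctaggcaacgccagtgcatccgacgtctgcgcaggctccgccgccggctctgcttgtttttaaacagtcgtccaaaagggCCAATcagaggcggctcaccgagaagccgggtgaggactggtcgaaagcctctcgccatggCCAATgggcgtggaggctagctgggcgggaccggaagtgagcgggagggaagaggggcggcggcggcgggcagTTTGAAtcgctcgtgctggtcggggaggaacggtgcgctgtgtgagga
Top2a holds 8 matches and Cenpf 3, and none of them overlaps another. The motif of the myeloid factor PU.1, spelled GAGGAAGT, was in 1 of 12 windows of the Fc receptor, integrin and oxidase genes (8.33%). It was in 2.94% of the windows of genes tested, in 4.89% of those of genes called higher and in 1.79% of those called lower.

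Cholesterol synthesis genes fell. Of 21 tested, 16 were lower and none higher, with a median of -0.68. Insig1, a sterol-regulated brake on the pathway, read 147, 108 and 85.5 CPM in sham and 44.1, 49.6 and 57.4 CPM in SCI (log2 fold change -1.17 ± 0.20, adjusted p = 0.0031, edgeR). Fdft1, which makes squalene, read 94, 74.8 and 62.6 CPM in sham and 38, 44.8 and 47.3 CPM in SCI (log2 fold change -0.83 ± 0.16, adjusted p = 0.0053). Srebf2, the factor SREBP2 that drives the pathway, read 223, 192 and 195 CPM in sham and 121, 148 and 142 CPM in SCI (log2 fold change -0.57 ± 0.11, adjusted p = 0.0058). The groups did not overlap in these genes. The binding element of SREBP2, spelled TCACNCCAC, was in 1 of the 15 windows of the list and in 1.09% of those of genes tested.

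Genes of energy metabolism fell more often than they rose. In the glycolysis list 9 of 21 were lower and 3 higher, where 18.3% of all genes tested were lower and 20.7% higher. Its lower members numbered 4 without sham replicate 1, with all 9 libraries in the fit and without SCI replicate 1 and sham replicate 3. They numbered 5 without sham replicate 3. Hk2, the inducible hexokinase, read 14.7, 17.7 and 22.8 CPM in sham and 71.4, 56.8 and 50.4 CPM in SCI (log2 fold change 1.69 ± 0.19, adjusted p = 0.00091). Ldha, the lactate-forming subunit of lactate dehydrogenase, read 76, 64.1 and 79 CPM in sham and 189.6, 118 and 113 CPM in SCI (log2 fold change 0.94 ± 0.20, adjusted p = 0.0077), while Ldhb, the other main subunit, read 358, 297 and 300.3 CPM in sham and 191, 206 and 197 CPM in SCI (log2 fold change -0.69 ± 0.11, adjusted p = 0.0024). Slc2a3, the neuronal glucose transporter, fell by 0.81 on the log2 scale. Citrate cycle and respiratory chain genes were lower in 16 of 24 and higher in none, with a median of -0.42; Idh3a, a subunit of isocitrate dehydrogenase, read 148, 134 and 145 CPM in sham and 80.6, 87.5 and 88 CPM in SCI (log2 fold change -0.74 ± 0.09, adjusted p = 0.0011). In this list 10 were lower without sham replicate 1 and 9 without SCI replicate 1 and sham replicate 3.

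Iron and antioxidant genes rose in part. Of 15 haem and iron genes, 8 were higher and 2 lower, where 20.7% of all genes tested were higher and 18.3% lower. The share of lower members was thus not above that of all genes. Slc11a1, a metal transporter of phagosomes, read 11.6, 13.1 and 17.1 CPM in sham and 68.2, 43.6 and 41.9 CPM in SCI (log2 fold change 1.88 ± 0.23, adjusted p = 0.0011). Tfrc, the transferrin receptor for iron uptake, read 179, 155 and 155 CPM in sham and 68.8, 90.6 and 92 CPM in SCI (log2 fold change -0.96 ± 0.13, adjusted p = 0.0016). Ncoa4, which carries ferritin to the lysosome, was the other lower gene, but sham replicate 3 at 7.49 CPM lay below all SCI libraries, and its call was lost in 8 alternatives. Of 21 antioxidant genes, 11 were higher, against 20.7% of all genes tested. Gpx1, a glutathione peroxidase, read 38.4, 35.2 and 42.4 CPM in sham and 119, 99.8 and 89.9 CPM in SCI (log2 fold change 1.41 ± 0.13, adjusted p = 0.00066). Sod2, the mitochondrial superoxide dismutase, was the 1 lower member, at 181, 173 and 171 CPM in sham and 96.3, 112 and 115 CPM in SCI (log2 fold change -0.70 ± 0.10, adjusted p = 0.0018).

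Hox genes, whose expression marks the level of the cord along its axis, were lower in 9 of 26 (18.3% of all genes tested were lower) and higher in none, with a median of -0.40. The median was -0.23 without SCI replicate 1, and 6 were lower without SCI replicate 1 and sham replicate 3. Hoxd10 read 18.2, 15.4 and 12.6 CPM in sham and 4.58, 8.14 and 6.495 CPM in SCI (log2 fold change -1.27 ± 0.24, adjusted p = 0.0045, edgeR), and Hoxa10 read 31.1, 30.2 and 23.8 CPM in sham and 12.2, 16.5 and 15.6 CPM in SCI (log2 fold change -0.94 ± 0.16, adjusted p = 0.0035). The groups did not overlap in either. Split by paralog group after the values were seen, 7 of the 10 members of groups 8 to 10 were lower, with a median of -0.71, and 2 of the 16 members of groups 2 to 7, with a median of -0.26. Whether the pieces of cord were taken at the same level in both groups is not given in the sources used here, and its part in these values was not tested.

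Muscle, Schwann cell and red blood cell genes were called higher more often than the 20.7% of all genes tested. Many of their calls were lost without 1 library. Ttn, the giant spring protein of muscle, read 53.7, 40.4 and 26.3 CPM in sham and 1998, 300.2 and 64.4 CPM in SCI (log2 fold change 4.29 ± 1.09, adjusted p = 0.015, edgeR), and its adjusted p was 0.062 without sham replicate 2 and 0.052 without sham replicate 3; without SCI replicate 1 its log2 fold change was 2.19. Of 18 muscle genes tested, 12 were higher and 1 lower (Pvalb, which inhibitory neurons also express), with 4 higher without SCI replicate 1, 2 without sham replicate 1, 1 without sham replicate 2 or sham replicate 3, and 0 by limma-voom (3 at an unadjusted p under 0.05). Their median of 3.80 was 1.51 without SCI replicate 1. Schwann cell genes were higher in 10 of 14. With 1 library left out, 3 were higher without sham replicate 2, 5 without sham replicate 1 or SCI replicate 2, and 12 without sham replicate 3. Drp2, a Schwann cell protein at the myelin surface that read 74.2, 84.8 and 70.2 CPM in sham and 131, 231 and 192 CPM in SCI, was apart in the 2 groups (log2 fold change 1.27 ± 0.19, adjusted p = 0.0023). Hbb-bs, a haemoglobin chain with a near-identical copy so that its count is uncertain, read 91.4, 97.3 and 118 CPM in sham and 699.8, 214 and 177 CPM in SCI (log2 fold change 1.83 ± 0.48, adjusted p = 0.017), and its adjusted p was 0.063 without sham replicate 1. Of the 10 red blood cell genes 8 were higher, but 1 when either sham replicate 1 or sham replicate 2 was left out, and their median of 1.83 was 1.01 without SCI replicate 1. Of 7 sensory ganglion genes tested, 1 was higher and 1 lower, with a median of -0.14. These shares were not above the 20.7% and 18.3% of all genes tested.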

How the data were processed

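The authors deposited, for each library, raw read counts per gene and FPKM values side by side, with Ensembl gene identifiers, symbols and coordinates. Per the labels' protocols, RNA was extracted with Trizol and libraries followed standard Illumina protocols. HISAT2 and the build GRCm38 (mm10) are named in the submitters' processing notes; no source used here gives the counting tool or its strand setting, so genes that share exon bases with a neighbour are named as uncertain where over 20% of their bases are shared. The deposited counts of the 6 libraries were filtered (filterByExpr, about 10 counts in 3 libraries), scaled by TMM and tested with edgeR 4.0.16 in R 4.3.3 (glmQLFTest, and glmTreat against 1.5-fold), with no covariate and Benjamini-Hochberg adjustment over all 17554 genes tested. A gene silent in 1 group can pass this filter. The authors' FPKM served only for ranks of level per length. Alternatives used limma 3.58.1 (voom), DESeq2 1.42.0, other scalings and filters, and fits without single libraries. The test was also run on simulated counts with known changes, and the outcome is not reported here.

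The gene lists, the motifs and the choice of this comparison were made with earlier results of these data known, so list counts are descriptions. Genes named are, per list, up to 4 called members with the lowest p, called members that moved against their list (up to 2), the 12 largest rises and 12 largest falls, the 10 largest gains and losses in CPM, and a panel of 21 cell markers; list members that were not called, and any others, were chosen after their values were seen. Some genes that this rule names are not reported here. The labels do not say whether replicate numbers in the titles pair samples, and the main fit used no pairing. Deviations of same-numbered libraries from their group means correlated at -0.10, -0.08 and -0.10 across genes. Those of differently numbered sham and SCI libraries correlated at -0.04 to 0.13. Such values cannot show whether a batch or day was shared.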

Additional observations from a re-analysis of the deposited data

How the results depend on the processing

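No gene called in the fit of 6 libraries was called in the opposite direction under any of the 15 alternatives run, and 219 of 254 named genes kept their direction and their side of the threshold under each alternative that tested them; the filter of 10 counts in every library tested 238. Other scalings (DESeq2's size factors, upper quartile), filters, limma-voom, DESeq2 and all 9 libraries in the fit gave 3345 to 3657 genes higher and 2933 to 3565 lower; upper quartile scaling moved the median of all genes to -0.05. Leaving out 1 library gave 2696 to 3490 genes higher, 2037 to 2779 lower, 960 to 1775 higher beyond 1.5-fold and 78 to 642 lower beyond 1.5-fold. Without SCI replicate 1 and sham replicate 3 together, 2075 genes were lower and 327 lower beyond 1.5-fold. Those fits have fewer samples. With the replicate number as a replicate block, 2915 genes were higher, 2253 lower and 216 lower beyond 1.5-fold. No sham library deviated together with the SCI library of its own number, which does not settle whether the numbers pair samples.

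The named genes that changed sign were not called in the fit of 6 libraries. Over the fits leaving out 1 library, the log2 fold change ranged from -0.144 to 0.0457 for Foxj1, from -0.177 to 0.368 for Mbp, from -0.124 to 0.332 for P2ry12 and from -0.86 to 0.129 for S100a8, and the median of the neutrophil list from -0.649 to 0.129. With SCI replicate 1 and sham replicate 3 both left out, Foxj1 was at 0.0558 and Mbp at -0.2. Medians of lists near 0 changed sign as well, such as that of the ependymal list, from -0.0587 to 0.138 without SCI replicate 1. The cause was not tested. Genes under 1 CPM were called in 4.89% of cases, against 58.8% at 100 CPM or more. Of the 17 lymphocyte genes, 6 had enough counts to be tested, which limits what can be said of that list. Ccl8, Cxcl13, Il6 and Il10 were not tested either. Among tested members, 61.9% of chemokine genes and 69.2% of interleukin and TNF genes were called, against 39.0% of all genes tested.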
